A study of Danio rerio with 12 samples.

Results

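The translation initiation factor genes of zebrafish macrophages were followed across 12 RNA sequencing libraries. A gene was a member where its symbol in the table of Ensembl gene names began with eif and a digit from 1 to 6, whatever the case of its letters. This took in 66 of 35117 gene IDs, of which 64 passed the filter on low counts and were tested with 16429 genes in all. Of the 66 symbols, 50 stood in capitals and 16 in lower case, and all are written here in lower case. There were 2 IDs each for 7 of the symbols, which are told apart by the Ensembl ID. The cells were mpeg-GFP+ cells, sorted by fluorescence from embryos that carry the transgene tg(mpeg-GFP), a reporter of macrophages. Control embryos are labelled wildtype with that reporter. The study's methods also name the line Et(shhb:KalTA4,UAS-E1b:mCherry)zf279 among its control animals, and do not say whether these embryos carried it. The csf1rDM embryos carried the same reporter on a background homozygous for j4e1 in csf1ra and for re01 in csf1rb, the zebrafish pair of genes for the colony stimulating factor 1 receptor, through which macrophages receive growth signals. Each genotype was sampled at 28 and 50 h post-fertilisation (hpf), with 3 libraries per group. Pools of 35 embryos went into each library, and 70 into each of csf1rDM at 50 hpf. Replicates are therefore pools, and p-values measure the spread between pools. Pool size cannot be told apart from genotype at 50 hpf, from stage in csf1rDM or from a change of the genotype effect with stage.

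Initiation of translation is the step at which a ribosome is loaded on a messenger RNA and finds the start codon. The GTPase eIF2 brings the initiator tRNA, eIF2B recharges eIF2 with GTP, eIF3 holds the small ribosomal subunit together with its partners, and the cap-binding protein eIF4E, the scaffold eIF4G and the helicase eIF4A recruit the messenger RNA. Cells throttle the step at a pair of points: kinases of the EIF2AK family phosphorylate eIF2 under stress, and 4E-binding proteins hold eIF4E away from eIF4G unless mTORC1 phosphorylates them. Growth factor receptors such as Csf1r act upstream of mTORC1 in mammalian macrophages. RNA levels say nothing of these phosphorylations.

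Totals per library lay between 8641139 and 20261650 counts. Levels are given as CPM, which are counts scaled by TMM to a common library size, and they are compared within a gene, not between genes, because no transcript lengths were used. A member passed the test where its adjusted p in the quasi-likelihood F test of edgeR was under 0.05. The study's own thresholds were stricter, with a limit of 0.01 on the adjusted p and of 1 on the size of the log2 fold change. The summed level of 16 macrophage marker IDs was 19559 to 20449 CPM in control and 23253 to 24126 in csf1rDM at 28 hpf, and 14679 to 16508 in control and 18578 to 21716 in csf1rDM at 50 hpf. Each of the 16 had counts in at least 1 library. Over all 12 libraries, the marker sums of other cells were 1.52 to 39 CPM for erythroid cells, 198 to 963 for neutrophils, 12.9 to 425 for keratinocytes, 1.09 to 622 for muscle and 7.99 to 74.1 for neural cells. In a bulk sample, fewer cells of a type and less RNA per cell cannot be told apart.

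The 66 initiation factor IDs together took 13521 ± 173 CPM (SD, n = 3) in control at 28 hpf, the highest of the groups, and all libraries of the other groups lay below that group's libraries. The sum was 12016 ± 111 in csf1rDM at 28 hpf, 11447 ± 656 in control at 50 hpf and 10925 ± 546 in csf1rDM at 50 hpf. The last 2 groups overlapped. The median member behaved alike: its level on the log2(CPM + 1) scale was 6.88 ± 0.059 (SD) in control at 28 hpf, against 6.49 ± 0.079 in csf1rDM of that stage, 6.53 ± 0.119 in control at 50 hpf and 6.34 ± 0.161 in csf1rDM at 50 hpf. Control at 28 hpf enters both the genotype effect at 28 hpf and the stage effect in control, so these comparisons share its libraries.

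**Figure D1:**
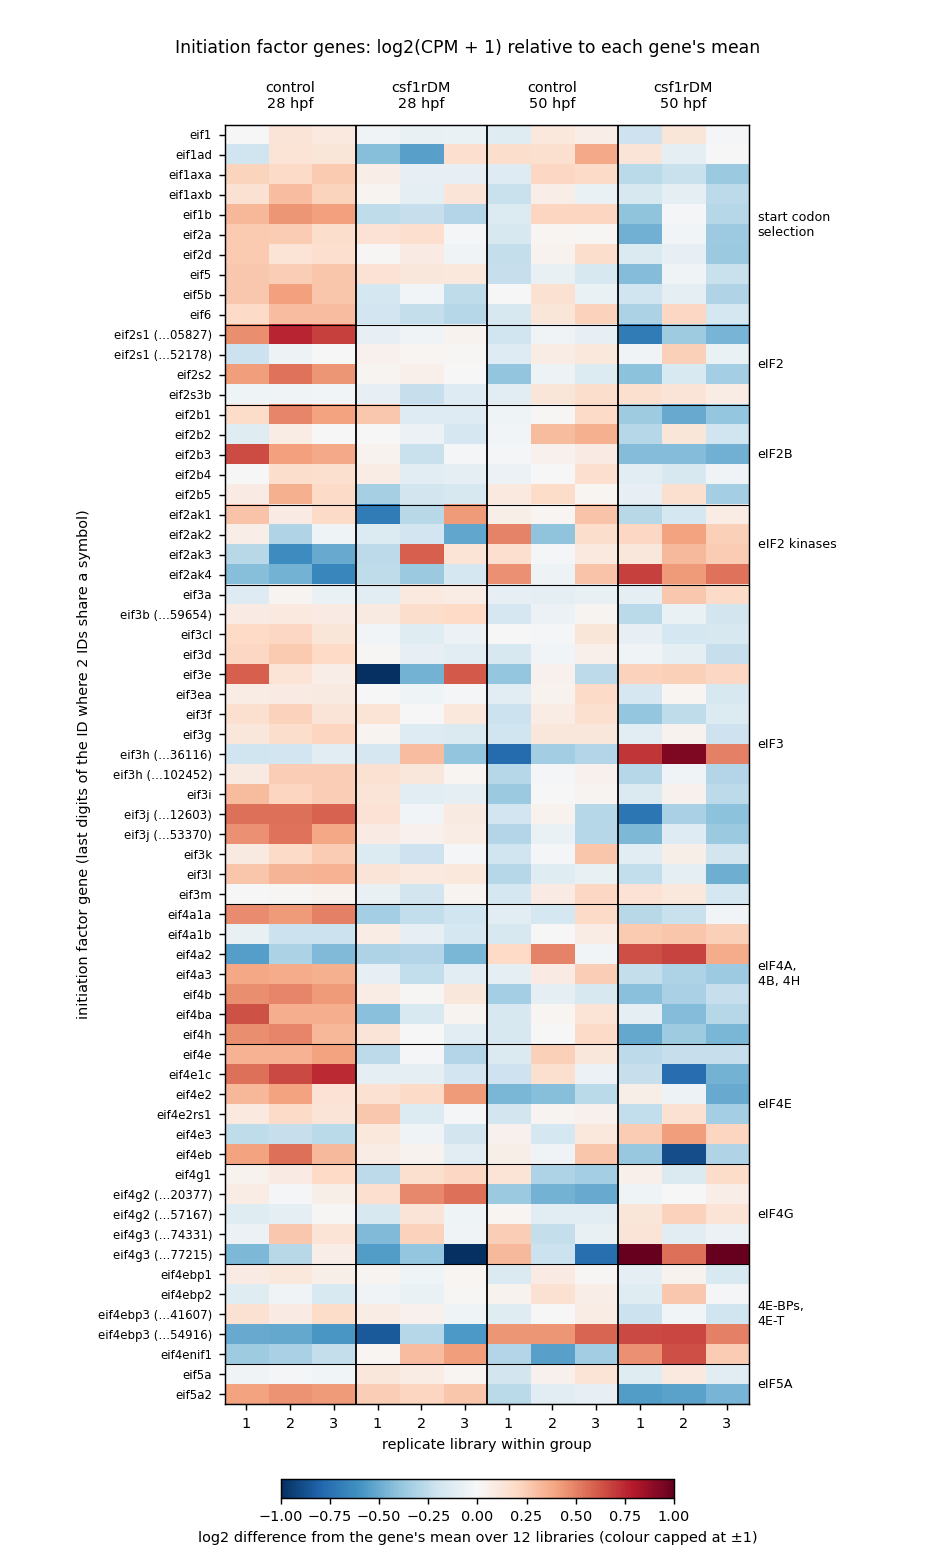
Level of the 64 tested initiation factor genes in each of the 12 libraries, as log2(CPM + 1) minus the gene's mean over the 12 libraries, with rows ordered by role and colour capped at a difference of 1 either way. The 3 libraries of control at 28 hpf are red in most rows, as the summed 13521 CPM of that group reflects, while the kinase gene eif2ak4 and the 4E-BP gene eif4ebp3 (ENSDARG00000054916) are blue there.

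At 28 hpf, initiation factor genes were mostly lower in csf1rDM than in control macrophages, by less than a factor of 2 in every member that passed. Of 64 tested members, 19 were lower and 3 higher at an adjusted p under 0.05. Over all 16429 genes, 20.5% passed in either direction, 10.9% as lower and 9.66% as higher, and lower members made up 29.7% of the members. Each library of the compared groups was also left out in turn, and a call is described as lost where its adjusted p was then 0.05 or more. The median log2 fold change of all 64 was -0.18 and that of all tested genes 0.02, with 50 of 64 members below 0. Under the study's thresholds 0 members passed with edgeR and 0 with DESeq2, against 4.08% of all genes, and 30 members (46.9%) had an unadjusted p under 0.05, against 33.5% of all genes. The count of calls fell to 13 without control replicate 2 and to 14 without csf1rDM replicate 2, with 12 and 13 of them lower. Shares of all genes called in these fits are not given beside these counts. The 3 csf1rDM libraries lay below all 3 control libraries for 34 members and above them for 7, where 21.8% and 19.3% of all genes did so. Beside these values, the sum of 4 neutrophil markers, each with counts in at least 1 library, was 417 to 963 CPM in control and 284 to 457 in csf1rDM, which overlap. Sums that separated the genotypes were those of 16 macrophage markers (higher in csf1rDM, values above), 2 muscle markers (1.3 to 1.66 CPM in control and 8.74 to 400.2 in csf1rDM) and 5 yolk and liver markers (50.6 to 59.5 and 60.1 to 115). Each of these markers had counts in at least 1 library. Within the macrophage sum, marco (205 to 232 CPM in control and 125 to 134 in csf1rDM) was lower in csf1rDM. So was the mfap4 ID ENSDARG00000090783 (3032 to 3107 and 2461 to 2720), unlike the sum. The yolk and liver sum was mostly tfa (46.9 to 58.3 CPM in control and 60.1 to 115 in csf1rDM). Within it, apoa2 went the other way (0.931 to 3.32 and 0 to 0.405). The part of these cells in the result was not tested.

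At 50 hpf fewer members were called. There, 9 members were lower and 4 higher in csf1rDM, with 19.9% of all genes called in either direction, 11.4% as lower and 8.44% as higher. The called members were 13 of 64, a share near that background. Without control replicate 3 the calls were 7, and without control replicate 1 they were 16 with a median of -0.22. The split depended on the scaling: it was 8 lower and 6 higher with DESeq2 size factors and 7 and 7 with upper quartile scaling. For these alternative fits the shares of all genes called are not given. The median log2 fold change of the members was -0.11, against -0.02 for all genes, and 45 of 64 were below 0. Of these members 1 passed the study's thresholds, the eif3h ID ENSDARG00000036116, where 5.33% of all genes passed. The groups did not overlap for 14 members lower in csf1rDM and 8 higher, beside 20.5% and 15.4% of all genes. Beside these values, the macrophage marker sum was again higher in all csf1rDM than in all control libraries, and the yolk and liver sum was 0.718 to 1.69 CPM in control and 3.04 to 18.3 in csf1rDM. Within the former, the mfap4 ID ENSDARG00000090783 was lower in csf1rDM (1190 to 1443 CPM in control and 938 to 1027 in csf1rDM). Its mfap4 ID ENSDARG00000088745 stood at 2801 to 3477 CPM in control and 5097 to 6699 in csf1rDM. Among others, the macrophage markers lcp1, coro1a, irf8 and csf1ra overlapped between the genotypes (csf1ra 350 to 445 and 339 to 405 CPM). Of the yolk and liver genes, tfa stood at 0 to 0.438 CPM in control and 1.78 to 8.64 in csf1rDM. The genotypes overlapped for apoa2 (0.718 to 1.47 and 1.04 to 1.93). The part of these cells at 50 hpf was not tested.

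The genotype effects at 28 and at 50 hpf come from separate libraries. Called lower at both stages were 6 members (eif4e1c, eif2s1 ENSDARG00000005827, eif2b3, eif4a3, eif4h and eif5a2), and called higher at both were 2 (eif4enif1 and eif4g2 ENSDARG00000020377). These 8 were 36.4% of the 22 members called at 28 hpf and 61.5% of the 13 called at 50 hpf, where calls in the same direction made up 55.4% and 57.3% of the calls over all genes, and 0 members were called in opposite directions. Of the 8, only eif2b3 kept both calls under all 13 alternatives of processing and library omission. The others each lost the call of 1 stage at least once, eif4e1c at 50 hpf in 8 alternatives and eif5a2 at 28 hpf in 6. By sign alone, called or not, 53 of 64 members (82.8%) moved the same way at both stages, as did 72.5% of all tested genes.

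**Figure D2:**
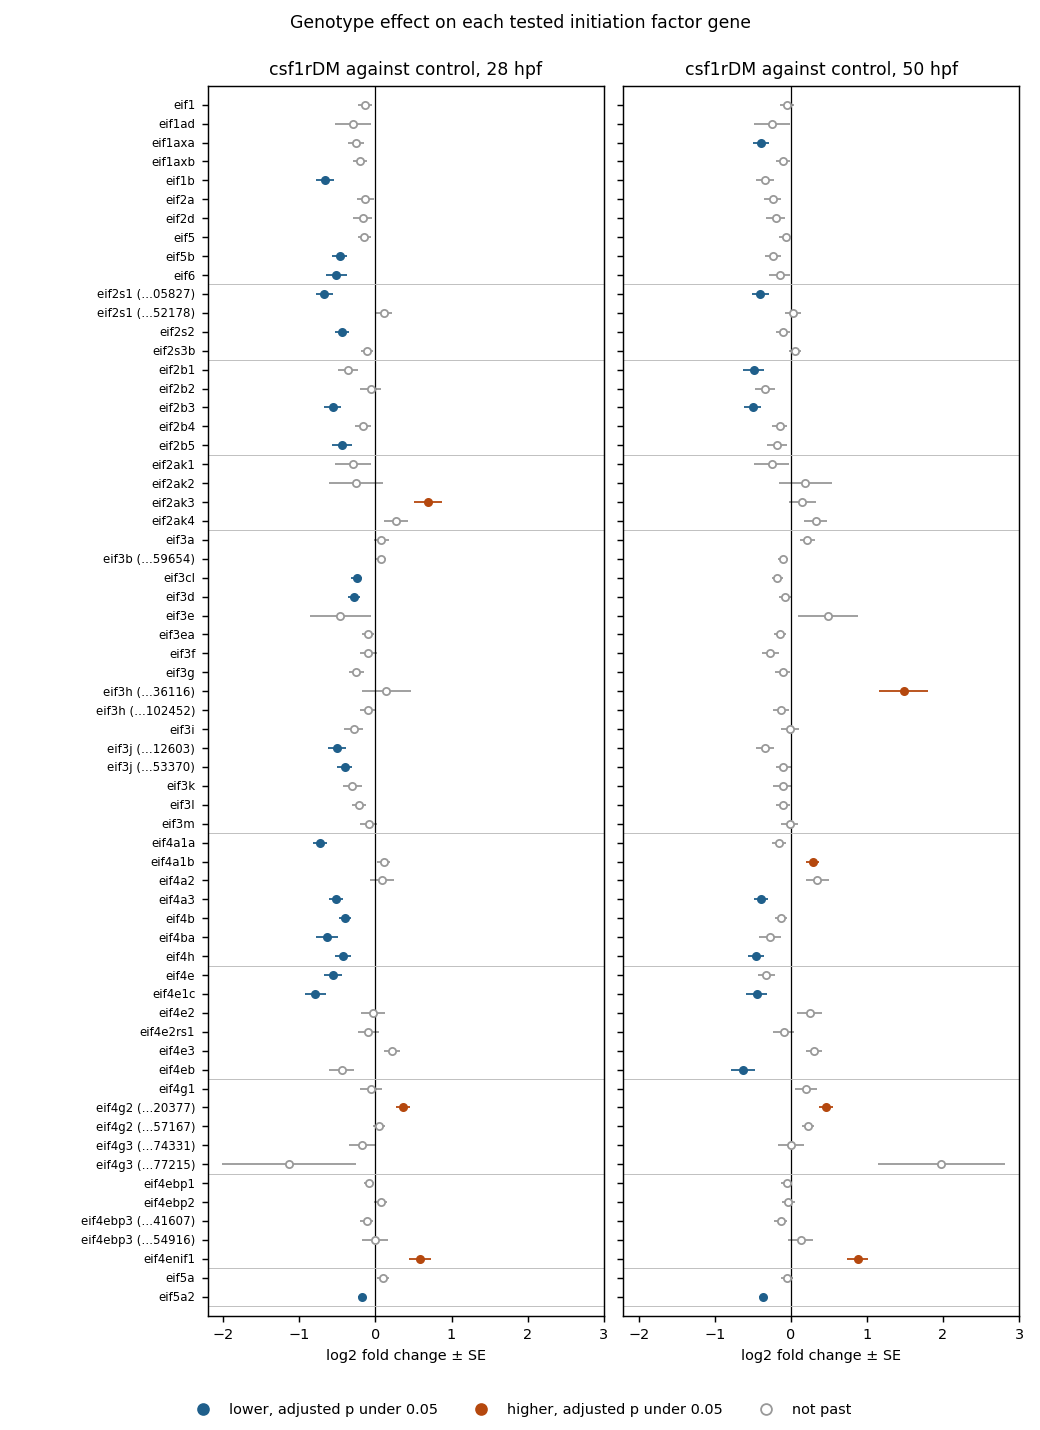
Log2 fold change of csf1rDM against control with its standard error for each of the 64 tested initiation factor genes at 28 hpf (left) and 50 hpf (right), ordered by role, with filled points for an adjusted p under 0.05. At 28 hpf 19 filled points lie left of 0 and 3 right of it, and at 50 hpf 9 and 4.

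Between 28 and 50 hpf, the factors fell more often than they rose in both genotypes. In control macrophages 19 of 64 members were lower at 50 hpf and 4 higher, while 23.4% of all genes passed, 11.4% as lower and 12% as higher. Their median log2 fold change was -0.17 against 0.05 for all genes, 48 members were below 0, and the libraries of the stages did not overlap for 30 members that were lower and 7 that were higher (all genes 23% and 26.3%). In csf1rDM macrophages 16 members were lower and 8 higher, while 27.6% of all genes passed, 14.4% as lower and 13.3% as higher. The median there was -0.06 against 0.04, with 39 members below 0 and stages that did not overlap for 21 lower and 9 higher members (all genes 18.6% and 18.1%). Of the members, the study's thresholds were passed by 1 in each genotype, the eif4ebp3 ID ENSDARG00000054916, with 6.29% of all genes in control and 8.24% in csf1rDM.

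The stage effects in the 2 genotypes also come from separate libraries. Lower at 50 hpf in both were 11 members (eif2b3, eif2s1 ENSDARG00000005827, eif2s2, eif3j ENSDARG00000012603, eif3j ENSDARG00000053370, eif3l, eif4b, eif4g2 ENSDARG00000020377, eif4h, eif5 and eif5a2), and higher in both were 3, eif2ak4, eif4a2 and eif4ebp3 (ENSDARG00000054916). They were 60.9% of the 23 members called in control and 58.3% of the 24 called in csf1rDM, and over all genes such calls made up 69.2% and 58.5%. Of them, eif2b3, eif2s2, eif3l, eif4h and eif5 lost a call under at least 1 alternative of processing or library omission. By sign alone 79.7% of the members moved the same way in both genotypes, a share near the 75.2% of all genes that did. In a fit of only the 6 csf1rDM libraries 14 members were called for stage, and the share of all genes called in that fit is not given. The sum of the yolk and liver markers was lower at 50 than at 28 hpf without overlap in both genotypes (values above). That sum was mostly tfa at 28 hpf. In csf1rDM apoa2 was higher at 50 hpf (0 to 0.405 CPM at 28 hpf and 1.04 to 1.93 at 50 hpf). The neutrophil sum was 417 to 963 CPM at 28 hpf and 198 to 286 at 50 hpf in control, and 284 to 457 and 237 to 289 in csf1rDM, where the stages overlapped. In control srgn alone made up 329 to 496 CPM of it at 28 hpf and 182 to 258 at 50 hpf. The marker lyz stood at 49 to 279 and 7.69 to 17.2 CPM there. The macrophage marker sum was lower at 50 than at 28 hpf in both genotypes (values above). Within it coro1a fell, with 5004 to 5263 CPM at 28 hpf and 2766 to 3318 at 50 hpf in control. In contrast, mpeg1 (ENSDARG00000055290), marco and csf1ra were higher at 50 hpf in both genotypes. Control levels at 28 and 50 hpf were 2437 to 2636 and 3523 to 3715 CPM for mpeg1. For marco they were 205 to 232 and 443 to 484, and for csf1ra 214 to 235 and 350 to 445. The part of these cells in the stage effects was not tested.

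**Figure D3:**
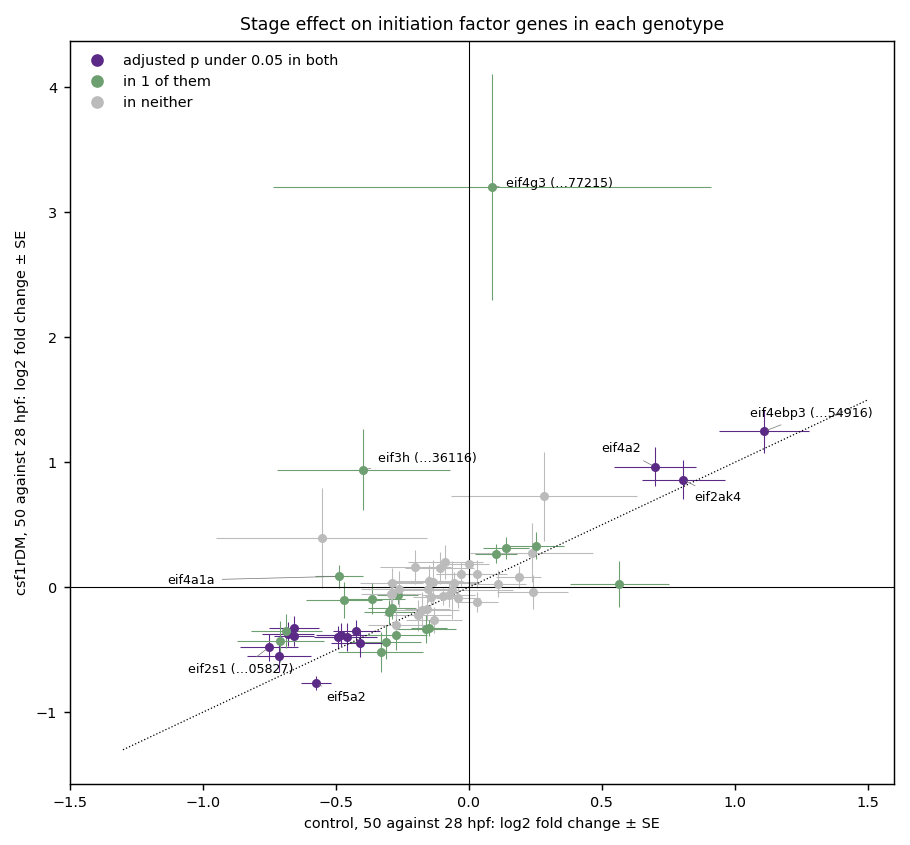
Log2 fold change between 50 and 28 hpf in control (horizontal) and in csf1rDM (vertical) with standard errors for the 64 tested initiation factor genes; the dotted line marks equal effects. The 3 genes that rose in both genotypes, eif4ebp3 (ENSDARG00000054916), eif4a2 and eif2ak4, lie at the upper right, and eif5a2 at the lower left.

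The interaction of genotype and stage asked whether the genotype effect changed with stage. With edgeR 0 of 64 members passed an adjusted p of 0.05, 7 (10.9%) had an unadjusted p under 0.05 as did 12.9% of all genes, and 0.919% of all genes passed (0.377% above 0 and 0.542% below 0). The thresholds of the study were met by 0 members under either tool and by 0.158% of all genes. The member with the smallest adjusted p was the helicase gene eif4a1a (log2 fold change 0.58 ± 0.13 SE, adjusted p = 0.0622). DESeq2 called 3 members, eif4a1a (log2 fold change 0.63, adjusted p = 0.000133), eif2s2 (0.39, adjusted p = 0.0411) and eif4b (0.32, adjusted p = 0.0305), a share near the 5.41% of the 12262 genes to which it gave an adjusted p. It had 15 members (23.4%) at an unadjusted p under 0.05, and 14.1% of all genes. For eif4a1a, edgeR too passed the threshold with the scalings of DESeq2 (adjusted p = 0.0349) and upper quartile (0.0344), with the filter of 10 counts in every library (0.0181), with the replicate block (0.0344) and without control 50 hpf replicate 3 (0.0315), and its adjusted p over all alternatives ran from 0.000133 to 0.211. A member called at 1 stage only is therefore not shown to differ between the stages.

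The helicase group, eIF4A with its stimulating partners eIF4B and eIF4H, unwinds the leader of the messenger RNA. It had the lowest median of the 10 role groups in csf1rDM at 28 hpf, -0.43 over 7 members, with 5 lower and 0 higher, and in control between the stages, -0.41 with 5 lower and 1 higher. Over all genes, 10.9% were called lower and 9.66% higher in the first comparison, and 11.4% and 12% in the second. Both comparisons share the control libraries at 28 hpf. In the other pairwise comparisons the group's median was not the lowest. It was -0.15 for genotype at 50 hpf, with 2 lower and 1 higher (all genes 11.4% and 8.44%). For stage in csf1rDM it was -0.1, with 2 lower and 2 higher (all genes 14.4% and 13.3%). The group's summed level was 2203 ± 28.8 CPM (SD, n = 3) in control and 1559 ± 20.5 in csf1rDM at 28 hpf, then 1662 ± 163 and 1537 ± 65.7 at 50 hpf.

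Of the helicase genes, eif4a1a encodes an eIF4A that opens leaders during cap-dependent initiation. Its levels were 1062, 1031 and 1085 CPM in control and 607, 647 and 667 in csf1rDM at 28 hpf. The control libraries at 50 hpf held 711, 679 and 877 CPM and those of csf1rDM 633, 658 and 750.2. Control at 28 hpf stood above all other libraries, and the genotypes overlapped at 50 hpf. The difference between genotypes passed at 28 hpf (log2 fold change -0.73 ± 0.09 SE, adjusted p = 0.000185) and not at 50 hpf (log2 fold change -0.15 ± 0.09 SE, adjusted p = 0.292). It fell with stage in control (-0.49 ± 0.09 on the log2 scale, adjusted p = 0.00185), and in csf1rDM its log2 fold change was 0.09 ± 0.09 (adjusted p = 0.531). Its paralogue eif4a1b moved otherwise, with 228, 206 and 206 CPM in control and 252, 227 and 212 in csf1rDM at 28 hpf. By 50 hpf the level was 214, 240.0 and 252 CPM in control and 287, 291 and 283 in csf1rDM. The csf1rDM libraries at 50 hpf were the highest, above all control libraries of that stage (log2 fold change 0.29 ± 0.09 SE, adjusted p = 0.0338), although the call was lost when any 1 of the 6 libraries was left out with an adjusted p up to 0.208 and with the replicate block. A rise of eif4a1b with stage in csf1rDM also passed (log2 fold change 0.32, adjusted p = 0.0158), lost without csf1rDM 28 hpf replicate 2 or 3. A further copy, eif4a2, was measured at 14.4, 17.1 and 15.6 CPM in control and 17.2, 17.4 and 15.4 in csf1rDM at 28 hpf. Libraries at 50 hpf gave 24.8, 30.7 and 21.1 CPM in control and 34.3, 35.1 and 28.2 in csf1rDM. It rose with stage in control (log2 fold change 0.7 ± 0.15 SE, adjusted p = 0.00531) and in csf1rDM (log2 fold change 0.96 ± 0.16 SE, adjusted p = 0.000526), with no overlap between stages in either genotype.

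The related helicase gene eif4a3, whose product is a core of the exon junction complex laid down at splicing, had 234, 232 and 229 CPM in control and 169, 151 and 166 in csf1rDM at 28 hpf. The 50 hpf libraries stood at 168, 189.9 and 212 CPM in control and 151, 144 and 139 in csf1rDM. At both stages every csf1rDM library lay below every control library, at 28 hpf (log2 fold change -0.51 ± 0.09 SE, adjusted p = 0.00176) and at 50 hpf (log2 fold change -0.39 ± 0.09 SE, adjusted p = 0.00852). The 50 hpf call did not pass in a fit of those 6 libraries alone. A fall of eif4a3 with stage in control was called (log2 fold change -0.29, adjusted p = 0.0359) and lost in 5 of 6 omissions of a library. Of the partners, eif4h gave 149, 151 and 135 CPM in control and 118, 107 and 99.2 in csf1rDM at 28 hpf. Levels at 50 hpf were 96.2, 108 and 123 CPM in control and 75.3, 84 and 78.1 in csf1rDM. All 3 csf1rDM libraries were below all 3 controls at each stage (log2 fold change -0.43 ± 0.11 SE, adjusted p = 0.0136 at 28 hpf, and -0.46 ± 0.11 with an adjusted p of 0.00844 at 50 hpf). The earlier call was lost without control 28 hpf replicate 1 or 2 with an adjusted p up to 0.0656. With stage eif4h fell in control (-0.41 ± 0.11, adjusted p = 0.0135) and in csf1rDM (-0.45 ± 0.11, adjusted p = 0.00745), the former lost without control 28 hpf replicate 2 or control 50 hpf replicate 1 with an adjusted p up to 0.0653. For eif4b the values were 480.0, 487 and 467 CPM in control and 365, 349.6 and 375 in csf1rDM at 28 hpf. In control at 50 hpf there were 274, 325 and 309.8 CPM, and in csf1rDM 259, 277 and 296. They separated the genotypes at 28 hpf (log2 fold change -0.4 ± 0.08 SE, adjusted p = 0.00292) and overlapped at 50 hpf, and they separated the stages in control (log2 fold change -0.66 ± 0.08 SE, adjusted p = 4.85e-05) and in csf1rDM (log2 fold change -0.39 ± 0.08 SE, adjusted p = 0.00204). Its copy eif4ba, at 31.6 to 67.8 CPM over all libraries, was lower in csf1rDM at 28 hpf (log2 fold change -0.64 ± 0.14 SE, adjusted p = 0.00759). Its fall with stage in control passed too (log2 fold change -0.47, adjusted p = 0.0315), lost in 5 of 6 omissions of a library.

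**Figure D4:**
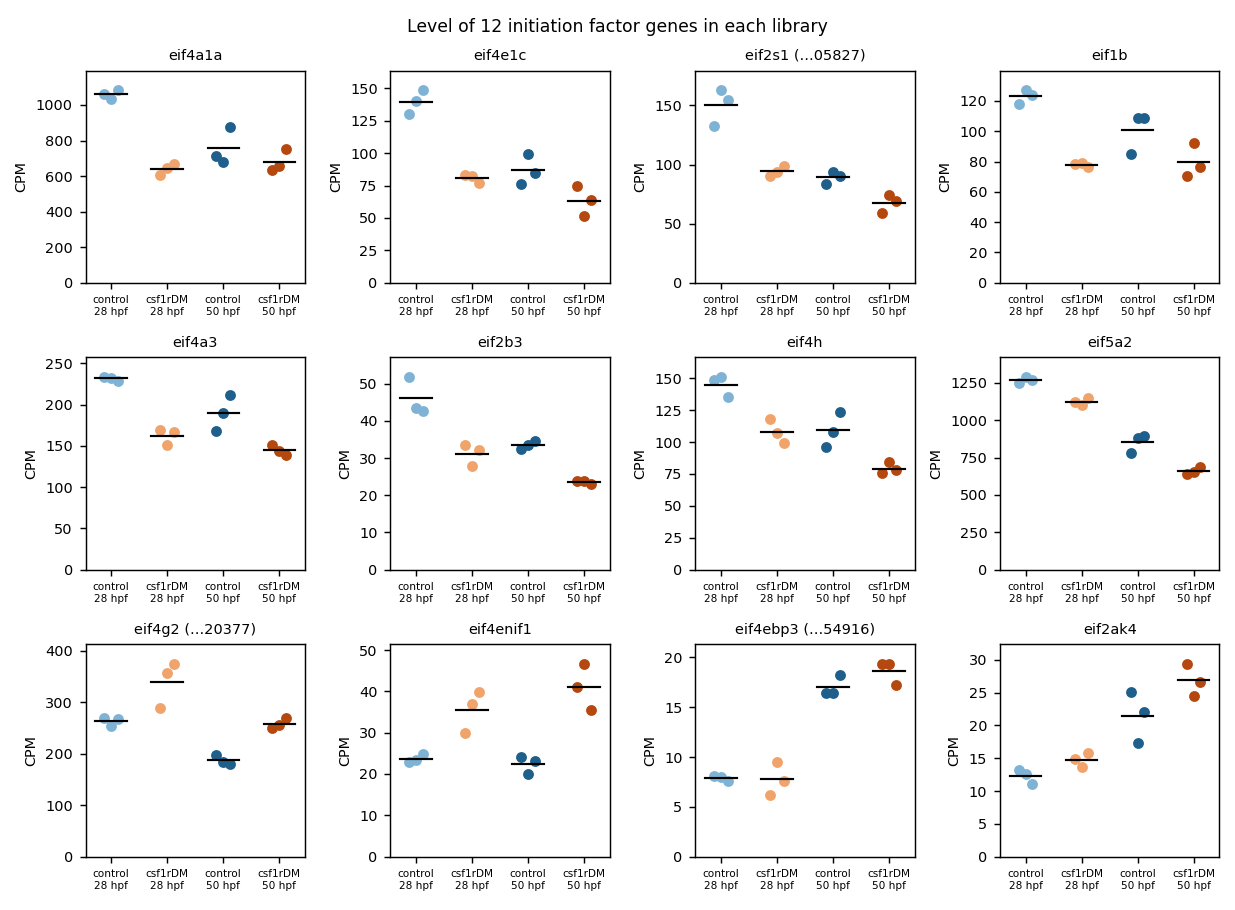
Level in CPM of 12 initiation factor genes in each library, 3 points per group with the mean as a bar, on linear axes that start at 0. In the panel of eif4a1a the 3 points of control at 28 hpf (1031 to 1085 CPM) stand above all others, and in that of eif4enif1 the csf1rDM points lie above the control points at both stages.

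The cap-binding group had 6 tested members. For genotype, the median of their log2 fold changes was -0.27 at 28 hpf and -0.21 at 50 hpf, and for stage it was -0.31 in control and -0.26 in csf1rDM. The canonical eIF4E binds the cap and is limiting for many messenger RNAs of growth genes in mammals. Here eif4e1c, a copy of eif4e, was measured at 129.8, 140.0 and 149 CPM in control and 82.9, 82.4 and 77.2 in csf1rDM at 28 hpf. At 50 hpf, control libraries had 76.4, 99 and 84.7 CPM and csf1rDM libraries 75, 51.8 and 63.6. Every csf1rDM library lay below every control library of its stage, by the largest fall of the members at or above 10 CPM at 28 hpf (log2 fold change -0.79 ± 0.13 SE, adjusted p = 0.00138). At 50 hpf the fall was smaller (log2 fold change -0.45 ± 0.13 SE, adjusted p = 0.0313), and the call at 50 hpf was lost without control 50 hpf replicate 2 or 3 or csf1rDM 50 hpf replicate 2 or 3 with an adjusted p up to 0.120, and with other scalings or the replicate block. Nor did eif4e1c pass in a fit of the 6 libraries at 50 hpf alone. Stages did not overlap in either genotype, with a call in control (-0.69 ± 0.13, adjusted p = 0.00227) and none in csf1rDM (-0.35 ± 0.13, adjusted p = 0.0714).

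For eif4e itself the libraries gave 71.4, 71.5 and 74.4 CPM in control and 46.6, 55.2 and 45.6 in csf1rDM at 28 hpf. The control libraries at 50 hpf held 50.6, 66.3 and 60.6 CPM and those of csf1rDM 46.5, 47.8 and 47.6. The genotypes did not overlap at either stage, and the difference passed at 28 hpf (log2 fold change -0.56 ± 0.11 SE, adjusted p = 0.00404) and not at 50 hpf (log2 fold change -0.32 ± 0.11 SE, adjusted p = 0.0619). The copy eif4eb had 34, 37.7 and 32.1 CPM in control and 26.8, 26.1 and 23.5 in csf1rDM at 28 hpf. By 50 hpf the level was 26.6, 24.8 and 31.1 CPM in control and 19.4, 13.3 and 20.5 in csf1rDM. Its csf1rDM libraries also lay below the controls at both stages, here with the call at 50 hpf (log2 fold change -0.63 ± 0.16 SE, adjusted p = 0.0149; adjusted p = 0.0682 at 28 hpf), which was lost without control 50 hpf replicate 3 with an adjusted p up to 0.0563. Stage in csf1rDM called eif4eb lower (log2 fold change -0.52, adjusted p = 0.0311), lost in 3 of 6 omissions of a library. The homologue eif4e2, whose mammalian product (4EHP) binds caps without recruiting eIF4G, fell with stage in control, from 25.7, 27 and 22.5 CPM to 14.5, 14.8 and 16.6 (log2 fold change -0.71 ± 0.16 SE, adjusted p = 0.00674). In csf1rDM it went from 22.6, 23.2 and 27.5 to 21.1, 19.5 and 13.9 (log2 fold change -0.43 ± 0.16 SE, adjusted p = 0.0687). The remaining homologue, eif4e3, was higher in csf1rDM than in control at each stage without passing (adjusted p = 0.166 and 0.0611) and rose with stage in csf1rDM from 82, 74.3 and 67 to 90.8, 102 and 88.5 CPM (log2 fold change 0.33 ± 0.11 SE, adjusted p = 0.0336). That call was lost without csf1rDM 28 hpf replicate 2 or 3 or csf1rDM 50 hpf replicate 1, 2 or 3 with an adjusted p up to 0.148. Under eif4e1b, the symbol of an eIF4E form known from oocytes, counts were present only in control 50 hpf replicate 2, at 0.144 CPM, and it was not tested; eif4e2rs1 passed in none of the comparisons.

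Of 5 tested genes of the repressors of eIF4E, 0 were called lower and 1 higher in each pairwise comparison. Over all genes, 10.9% to 14.4% were called lower and 8.44% to 13.3% higher. With 5 genes, 0 called lower is near the share of all genes. Genes eif4ebp1 and eif4ebp2 encode 4E-binding proteins, the brake that mTORC1 releases, and lay at 589.8 to 704 and 563 to 752 CPM over the 12 libraries. None of the comparisons called either of them: their log2 fold changes between genotypes were -0.08 ± 0.07 and 0.07 ± 0.09 (± SE) at 28 hpf and -0.06 ± 0.07 and -0.03 ± 0.09 at 50 hpf. Summed, the 4E-BPs and 4E-T took 1490.3 ± 29.2 CPM (SD, n = 3) in control and 1480.1 ± 26.3 in csf1rDM at 28 hpf, and 1515 ± 83.8 and 1480.5 ± 146 at 50 hpf. Of the 2 IDs for eif4ebp3, the ID ENSDARG00000054916 was low at 28 hpf and higher at 50 hpf, with 8.08, 8.01 and 7.57 CPM in control and 6.19, 9.52 and 7.63 in csf1rDM at 28 hpf. Libraries at 50 hpf gave 16.4, 16.4 and 18.2 CPM in control and 19.3, 19.4 and 17.2 in csf1rDM. No library of 1 stage reached the other, neither in control (log2 fold change 1.11 ± 0.17 SE, adjusted p = 0.000392) nor in csf1rDM (log2 fold change 1.25 ± 0.17 SE, adjusted p = 0.000134), while the genotypes overlapped at both stages. The ID ENSDARG00000041607, at 141 to 188 CPM, passed in none.

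The gene eif4enif1 encodes 4E-T, which carries eIF4E to the nucleus and to P-bodies, where messenger RNAs are held untranslated. Its libraries held 22.9, 23.4 and 24.9 CPM in control and 30.0, 36.9 and 39.9 in csf1rDM at 28 hpf. The 50 hpf libraries stood at 24, 19.9 and 23.1 CPM in control and 41, 46.7 and 35.5 in csf1rDM. All csf1rDM libraries were above all control libraries, at 28 hpf (log2 fold change 0.59 ± 0.14 SE, adjusted p = 0.0105) and at 50 hpf (log2 fold change 0.88 ± 0.14 SE, adjusted p = 0.000794). The first of these calls was lost without control 28 hpf replicate 1 or csf1rDM 28 hpf replicate 3 with an adjusted p up to 0.0876, and the second held without any single library. Between stages the libraries overlapped in both genotypes.

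Scaffold genes of the eIF4G family had 5 tested IDs, with 1 called higher in csf1rDM at each stage. Their median log2 fold change between genotypes was -0.06 at 28 hpf and 0.23 at 50 hpf, where all 5 values were above 0, 3 were at an unadjusted p under 0.05 and for 3 all csf1rDM libraries lay above all controls. Over all genes at 50 hpf, 32.1% were at such an unadjusted p, and for 15.4% the csf1rDM libraries lay above all controls. Called higher were 9.66% of all genes at 28 hpf and 8.44% at 50 hpf. The summed level of the 5 eIF4G IDs at 50 hpf was 1018 to 1219 CPM in control and 1265 to 1339 in csf1rDM, and at 28 hpf the genotypes overlapped (1200.05 to 1298 and 1116 to 1421). The gene eif4g1, for the main scaffold that joins eIF4E to eIF4A and eIF3, had 421, 435 and 471 CPM in control and 342, 458 and 474 in csf1rDM at 28 hpf. Levels at 50 hpf were 452, 332 and 324 CPM in control and 426, 372 and 466 in csf1rDM. No comparison called it. The mammalian product of eif4g2 (DAP5) lacks the eIF4E site and serves initiation without eIF4E. Its ID ENSDARG00000020377 had 269.8, 255 and 267 CPM in control and 288, 358 and 375 in csf1rDM at 28 hpf. In control at 50 hpf there were 198, 184 and 181 CPM, and in csf1rDM 249.6, 257 and 269. It was higher in csf1rDM at 28 hpf (log2 fold change 0.37 ± 0.09 SE, adjusted p = 0.0138) and 50 hpf (log2 fold change 0.46 ± 0.09 SE, adjusted p = 0.00370), and it fell with stage in control (log2 fold change -0.49 ± 0.09 SE, adjusted p = 0.00189) and in csf1rDM (log2 fold change -0.4 ± 0.09 SE, adjusted p = 0.00628). The groups overlapped in none of these 4 comparisons, and the call at 28 hpf was lost without control 28 hpf replicate 1, 2 or 3 or csf1rDM 28 hpf replicate 2 or 3 with an adjusted p up to 0.164. The ID ENSDARG00000057167, at 454 to 593 CPM, passed in none, and at 50 hpf its csf1rDM libraries lay above all controls (log2 fold change 0.23 ± 0.08 SE, adjusted p = 0.0559). Of the eif4g3 IDs, the ID ENSDARG00000074331 passed in none at 31.8 to 52.9 CPM. The ID ENSDARG00000077215 was near the limit of detection, with 0.871, 1.11 and 1.68 CPM in control and 0.729, 0.945 and 0 in csf1rDM at 28 hpf. At 50 hpf, control libraries had 2.19, 1.2 and 0.512 CPM and csf1rDM libraries 6.7, 2.73 and 6. Its rise in csf1rDM (log2 fold change 3.2 ± 0.90 SE, adjusted p = 0.0184) rests on 6, 14 and 0 counts in the libraries at 28 hpf, so the size of that fold depends on the prior count. At 50 hpf its csf1rDM libraries lay above all controls without passing (adjusted p = 0.118). The stage call did not pass in a fit of the 6 csf1rDM libraries alone.

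The eIF2 complex, of which eIF2α is the subunit that stress kinases phosphorylate, had 4 tested IDs. Between genotypes 2 of them were lower in csf1rDM at 28 hpf and 1 at 50 hpf, beside 10.9% and 11.4% of all genes. Both IDs under eif2s1, the gene of eIF2α, were measured, and only the ID ENSDARG00000005827 passed. It had 133, 163 and 155 CPM in control and 90.3, 93.7 and 98.5 in csf1rDM at 28 hpf. The control libraries at 50 hpf held 83.4, 93.7 and 90.5 CPM and those of csf1rDM 58.8, 74.5 and 69.1. All csf1rDM libraries lay below the controls at 28 hpf (log2 fold change -0.67 ± 0.11 SE, adjusted p = 0.00102) and at 50 hpf (log2 fold change -0.4 ± 0.11 SE, adjusted p = 0.0204), and all libraries at 50 hpf lay below those at 28 hpf in control (log2 fold change -0.75 ± 0.11 SE, adjusted p = 0.000281) and csf1rDM (log2 fold change -0.48 ± 0.11 SE, adjusted p = 0.00560). Of these calls, that at 50 hpf was lost without control 50 hpf replicate 2 or 3 or csf1rDM 50 hpf replicate 1 with an adjusted p up to 0.0945. That call was also lost in a fit of the 6 libraries at 50 hpf alone. The ID ENSDARG00000052178 had 86, 96.4 and 99.3 CPM in control and 103, 101 and 100.3 in csf1rDM at 28 hpf. By 50 hpf the level was 91.3, 105 and 107 CPM in control and 97.3, 118 and 95.3 in csf1rDM. It passed in none of the comparisons (log2 fold changes 0.03 to 0.11).

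The gene of eIF2β, eif2s2, had 430.2, 468 and 437 CPM in control and 329, 334 and 322 in csf1rDM at 28 hpf. Libraries at 50 hpf gave 245, 309.9 and 292 CPM in control and 242, 289 and 255 in csf1rDM. At 28 hpf the genotypes did not overlap (log2 fold change -0.44 ± 0.09 SE, adjusted p = 0.00517), at 50 hpf they did (log2 fold change -0.11 ± 0.09 SE, adjusted p = 0.475), and stages separated in control (log2 fold change -0.66 ± 0.09 SE, adjusted p = 0.000232) and in csf1rDM (log2 fold change -0.33 ± 0.09 SE, adjusted p = 0.0195). The last call was lost without csf1rDM 28 hpf replicate 2 or csf1rDM 50 hpf replicate 1 or 3 with an adjusted p up to 0.0718. For eif2s3b, the gene of the GTP-binding γ subunit, levels of 251 to 333 CPM were seen, with a rise with stage in csf1rDM only among the calls (log2 fold change 0.27 ± 0.08 SE, adjusted p = 0.0234), lost without csf1rDM 28 hpf replicate 2 or 3 or csf1rDM 50 hpf replicate 1 with an adjusted p up to 0.112.

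Genes of eIF2B, the exchange factor of eIF2, were called lower or not called. The 5 subunit genes had a median of -0.36 at 28 hpf and -0.34 at 50 hpf between genotypes, with all 5 values below 0 at each stage and 2 calls at each. Over all genes, 10.9% and 11.4% were called lower at these stages, and 48.7% and 51.2% of values lay below 0. The γ subunit gene eif2b3 had 51.9, 43.6 and 42.6 CPM in control and 33.5, 27.9 and 32.2 in csf1rDM at 28 hpf. The 50 hpf libraries stood at 32.3, 33.6 and 34.5 CPM in control and 23.9, 24 and 23.1 in csf1rDM. Its groups did not overlap between genotypes at either stage (log2 fold change -0.56 ± 0.11 SE, adjusted p = 0.00381 at 28 hpf and log2 fold change -0.5 ± 0.11 SE, adjusted p = 0.00743 at 50 hpf). Nor did they overlap between stages in control (-0.46 ± 0.11, adjusted p = 0.00976) or csf1rDM (-0.4 ± 0.11, adjusted p = 0.0201). The genotype calls held without any single library. Of the stage calls, that in control was lost without control 28 hpf replicate 1 with an adjusted p up to 0.0531 and that in csf1rDM without csf1rDM 28 hpf replicate 1 or csf1rDM 50 hpf replicate 3 with an adjusted p up to 0.0546. The α subunit gene eif2b1 was lower in csf1rDM at 50 hpf, 27.9, 25.1 and 27.4 CPM against 35, 36.5 and 41.4 in control (log2 fold change -0.49 ± 0.14 SE, adjusted p = 0.0226), and eif2b5, the catalytic ε subunit, at 28 hpf, 43, 47.7 and 48.6 CPM against 57.6, 69.8 and 62 (log2 fold change -0.44 ± 0.13 SE, adjusted p = 0.0294). The first was lost without control 50 hpf replicate 3 or csf1rDM 50 hpf replicate 2 with an adjusted p up to 0.0869, and the second without control 28 hpf replicate 2 or 3 or csf1rDM 28 hpf replicate 2 with an adjusted p up to 0.134. A fall of eif2b1 with stage in csf1rDM was called (log2 fold change -0.44, adjusted p = 0.0291) and lost in 3 of 6 omissions of a library. The β and δ genes eif2b2 and eif2b4 passed in none.

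Of the 4 genes of the kinases of eIF2, 1 was called higher for genotype at 28 hpf and 0 at 50 hpf. For stage, 2 were called higher in control and 1 in csf1rDM. Over all genes 9.66%, 8.44%, 12% and 13.3% were called higher in these comparisons. No kinase gene was called lower, and with 4 genes this is near the 10.9% to 14.4% of all genes called lower. The 4 genes had medians of 0.01 and 0.17 for genotype at 28 and 50 hpf and of 0.43 and 0.38 for stage in control and csf1rDM. For genotype, 2 of the 4 values lay below 0 at 28 hpf and 1 at 50 hpf. The gene eif2ak4 encodes GCN2, the sensor of uncharged tRNA, and had 13.1, 12.6 and 11 CPM in control and 14.9, 13.6 and 15.8 in csf1rDM at 28 hpf. Levels at 50 hpf were 25.1, 17.3 and 22.1 CPM in control and 29.4, 24.5 and 26.7 in csf1rDM. All libraries at 50 hpf were above those at 28 hpf in control (log2 fold change 0.81 ± 0.16 SE, adjusted p = 0.00223) and in csf1rDM (log2 fold change 0.86 ± 0.16 SE, adjusted p = 0.00121), and both calls held without any single library. The genotypes did not overlap at 28 hpf, where the test was not passed (log2 fold change 0.27 ± 0.16 SE, adjusted p = 0.263), and overlapped at 50 hpf. The gene of PERK, the kinase of endoplasmic reticulum stress, eif2ak3, had 27.3, 21.2 and 23.1 CPM in control and 27.6, 50.9 and 36.7 in csf1rDM at 28 hpf. In control at 50 hpf there were 37.5, 32.8 and 35.8 CPM, and in csf1rDM 36.1, 41.8 and 39.9. Its csf1rDM libraries at 28 hpf were spread widely and stood above the controls (log2 fold change 0.69 ± 0.19 SE, adjusted p = 0.0199), a call lost without control 28 hpf replicate 2 or 3 or csf1rDM 28 hpf replicate 2 or 3 with an adjusted p up to 0.0971, and its rise with stage in control (log2 fold change 0.57 ± 0.18 SE, adjusted p = 0.0425) was lost when any 1 of the 6 libraries was left out with an adjusted p up to 0.170 and with the replicate block. The genes eif2ak1 (HRI, which senses heme) and eif2ak2 (PKR, which senses double-stranded RNA), at 14.8 to 33.6 and 2 to 5.06 CPM, passed in none.

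The largest complex, eIF3, had 16 tested IDs of 17. At 28 hpf 4 were lower in csf1rDM and 0 higher (8 of the 16 at an unadjusted p under 0.05, where 33.5% of all genes were), with a median of -0.23, and at 50 hpf 0 were lower and 1 was higher with a median of -0.11 and 5 at an unadjusted p under 0.05, where 32.1% of all genes were. Over all genes, 10.9% were called lower and 9.66% higher at 28 hpf, and 11.4% and 8.44% at 50 hpf. The IDs of eif3j, a loosely bound subunit at the decoding centre, carried the largest falls called in the complex at 28 hpf and with stage in control. The ID ENSDARG00000012603 had 87.2, 87.4 and 89.8 CPM in control and 65.7, 58.1 and 63 in csf1rDM at 28 hpf. At 50 hpf, control libraries had 51.8, 60.9 and 48.4 CPM and csf1rDM libraries 35.6, 47.2 and 44.4. Genotypes and stages did not overlap in any of the 4 comparisons. The calls were those at 28 hpf (log2 fold change -0.5 ± 0.12 SE, adjusted p = 0.0107) and those of stage in control (log2 fold change -0.72 ± 0.12 SE, adjusted p = 0.000846) and csf1rDM (log2 fold change -0.55 ± 0.12 SE, adjusted p = 0.00451), with an adjusted p of 0.0669 at 50 hpf. The ID ENSDARG00000053370 had 237, 252 and 225 CPM in control and 182, 177 and 181 in csf1rDM at 28 hpf. The control libraries at 50 hpf held 140.5, 164 and 141 CPM and those of csf1rDM 126, 158 and 133. It passed in the same 3 comparisons (log2 fold changes -0.4 ± 0.10, -0.68 ± 0.10 and -0.38 ± 0.10, adjusted p = 0.0114, 0.000257 and 0.0118), and the genotypes overlapped at 50 hpf. At 28 hpf the call of the first was lost without csf1rDM 28 hpf replicate 2 with an adjusted p up to 0.0517 and that of the second without control 28 hpf replicate 2 with an adjusted p up to 0.0667.

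Core subunits gave few calls. The scaffold gene eif3a ranged over 269 to 356 CPM and passed in none, and eif3b (ENSDARG00000059654) at 566 to 781 CPM passed only for stage in csf1rDM (log2 fold change -0.32 ± 0.07 SE, adjusted p = 0.00275). The subunit gene eif3l fell with stage in control, from 389.9, 406 and 407 to 264, 295 and 304 CPM (log2 fold change -0.48 ± 0.09 SE, adjusted p = 0.00214), and in csf1rDM (log2 fold change -0.38 ± 0.09 SE, adjusted p = 0.00860), the latter not passing in a fit of the 6 csf1rDM libraries alone (adjusted p = 0.0527). The gene eif3d, whose mammalian product can bind caps itself, was lower in csf1rDM at 28 hpf (log2 fold change -0.28 ± 0.08 SE, adjusted p = 0.0208; lost without control 28 hpf replicate 1, 2 or 3 or csf1rDM 28 hpf replicate 2 with an adjusted p up to 0.0857). Stage in control called eif3d lower as well (log2 fold change -0.27, adjusted p = 0.0231), lost in 4 of 6 omissions of a library. Beside these, eif3cl was called lower at 28 hpf (log2 fold change -0.24), lost without control 28 hpf replicate 1, 2 or 3 or csf1rDM 28 hpf replicate 2 with an adjusted p up to 0.104. With stage, eif3i was called lower in control (-0.36), lost without control 28 hpf replicate 1, 2 or 3 or control 50 hpf replicate 1 or 2 with an adjusted p up to 0.173, and eif3f in csf1rDM (-0.34), lost without csf1rDM 28 hpf replicate 1, 2 or 3 or csf1rDM 50 hpf replicate 1 or 2 with an adjusted p up to 0.128. The genes eif3e, eif3ea, eif3g, eif3k, eif3m and eif3h (ENSDARG00000102452) passed in none. The low-level eif3h ID ENSDARG00000036116 was the exception. It had 3.09, 3.11 and 3.35 CPM in control and 3.16, 4.79 and 2.57 in csf1rDM at 28 hpf. By 50 hpf the level was 1.75, 2.68 and 2.81 CPM in control and 6.7, 7.96 and 5.63 in csf1rDM. The csf1rDM libraries at 50 hpf stood above all others (log2 fold change 1.48 ± 0.32 SE, adjusted p = 0.00634). It was the member past the study's thresholds there, and it missed them when any 1 of the 6 libraries was left out, with an adjusted p of 0.0103 to 0.0299. Its rise with stage in csf1rDM was called (log2 fold change 0.94, adjusted p = 0.0457) and lost in 5 of 6 omissions of a library. The eif3b ID ENSDARG00000074213 had counts only in control 50 hpf replicate 2 (0.0957 CPM) and csf1rDM 50 hpf replicate 1 (0.793 CPM) and was not tested.

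Start codon selection and subunit joining involve eIF1 and eIF1A, which keep the scanning ribosome open, eIF5, the GTPase activator of eIF2, and eIF5B, which joins the large subunit. These 10 members had medians of -0.23 and -0.22 for genotype at 28 and 50 hpf, with all 10 values below 0 at both stages and 3 and 1 calls, all lower. The calls are 30% and 10% of the group, beside 10.9% and 11.4% of all genes called lower. The share at 50 hpf is thus near that of all genes. Values below 0 made up 48.7% and 51.2% over all genes. The eIF1 gene eif1b had 118, 127 and 124 CPM in control and 78.2, 79.4 and 76.2 in csf1rDM at 28 hpf. Libraries at 50 hpf gave 84.7, 109 and 109 CPM in control and 70.4, 92.5 and 76.4 in csf1rDM. Its genotypes separated at 28 hpf (log2 fold change -0.66 ± 0.12 SE, adjusted p = 0.00216) and overlapped at 50 hpf (log2 fold change -0.34 ± 0.12 SE, adjusted p = 0.0681), while the other eIF1 gene, eif1, lay at 193 to 245 CPM and passed in none. For eif5b the levels at 28 hpf were 106, 117 and 107 CPM in control and 78.1, 86.7 and 73.9 in csf1rDM (log2 fold change -0.47 ± 0.10 SE, adjusted p = 0.00536), with no overlap at 50 hpf either (log2 fold change -0.23 ± 0.10 SE, adjusted p = 0.123). The gene eif6, whose product keeps free large subunits apart from small ones, was lower in csf1rDM at 28 hpf, 71.5, 69 and 67 CPM against 93.3, 101 and 102 (log2 fold change -0.51 ± 0.14 SE, adjusted p = 0.0185), a call lost without control 28 hpf replicate 2 or 3 or csf1rDM 28 hpf replicate 2 with an adjusted p up to 0.0723. The eIF1A gene eif1axa passed at 50 hpf only (log2 fold change -0.39 ± 0.11 SE, adjusted p = 0.0209; lost without control 50 hpf replicate 2 or 3 or csf1rDM 50 hpf replicate 3 with an adjusted p up to 0.0983), and eif1axb for stage in control only (log2 fold change -0.3 ± 0.09 SE, adjusted p = 0.0364; lost without control 28 hpf replicate 1, 2 or 3 or control 50 hpf replicate 1 or 3 with an adjusted p up to 0.155). The gene eif5 fell with stage in control (log2 fold change -0.42 ± 0.09 SE, adjusted p = 0.00345) and in csf1rDM (log2 fold change -0.35 ± 0.09 SE, adjusted p = 0.0103), where it did not pass in a fit of those 6 libraries alone (adjusted p = 0.0579). The gene eif2a fell with stage in csf1rDM (log2 fold change -0.38 ± 0.12 SE, adjusted p = 0.0267; lost without csf1rDM 28 hpf replicate 1 or 2 or csf1rDM 50 hpf replicate 1 or 3 with an adjusted p up to 0.0943). Both eif1ad and eif2d passed in none.

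The factor eIF5A, named as an initiation factor but known to relieve stalled elongation and to need the modified lysine hypusine, is encoded here by eif5a and eif5a2. The libraries of eif5a2 held 1253, 1291 and 1271 CPM in control and 1125, 1102 and 1146 in csf1rDM at 28 hpf. The 50 hpf libraries stood at 784, 881 and 895 CPM in control and 641, 655 and 685 in csf1rDM. The 4 groups did not overlap with one another, with csf1rDM below control at 28 hpf (log2 fold change -0.18 ± 0.06 SE, adjusted p = 0.0403) and at 50 hpf (log2 fold change -0.37 ± 0.06 SE, adjusted p = 0.000549) and 50 hpf below 28 hpf in control (log2 fold change -0.58 ± 0.06 SE, adjusted p = 1.05e-05) and in csf1rDM (log2 fold change -0.77 ± 0.06 SE, adjusted p = 8.11e-07). The call at 28 hpf, the smallest change called there, was lost without control 28 hpf replicate 1, 2 or 3 or csf1rDM 28 hpf replicate 2 with an adjusted p up to 0.144. The interaction did not pass (log2 fold change -0.19 ± 0.08 SE, adjusted p = 0.325). By contrast eif5a had 806, 822 and 813 CPM in control and 895, 872 and 839 in csf1rDM at 28 hpf. Levels at 50 hpf were 729, 854 and 909 CPM in control and 762, 884 and 763 in csf1rDM. No comparison called it.

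Zebrafish keep duplicate copies of many of these genes, and in several families the share of counts that a copy took differed between groups. Shares of counts within a family are given as percentages. Since copies differ in length, a share is compared only with the same share in other groups, and counting may split reads between near-identical copies. The gene eif4a1a took 82.2% ± 0.8 (mean and SD, n = 3) of the counts of eif4a1a, eif4a1b and eif4a2 in control and 72.1% ± 2.69 in csf1rDM at 28 hpf, then 74.2% ± 2.44 and 68% ± 2.38 at 50 hpf. Libraries of the genotypes did not overlap at either stage. Over the same order of groups, eif5a2 took 61% ± 0.13, 56.4% ± 1.14, 50.7% ± 1.1 and 45.2% ± 2.43 of the eIF5A pair, without overlap of any groups. For eif2s1, the ID ENSDARG00000005827 took 61.5% ± 1.19 of its pair in control at 28 hpf and 48.2% ± 1.39 in csf1rDM, and 46.8% ± 1.02 and 39.5% ± 2.27 at 50 hpf. For eif1b the shares of the eIF1 pair were 34.3% ± 0.22 and 26.6% ± 0.47 at 28 hpf and 30.6% ± 1.34 and 26.6% ± 1.01 at 50 hpf. The eif4g2 ID ENSDARG00000020377 went the other way with genotype, at 35.3% ± 1.2 and 40.5% ± 2.48 of its pair at 28 hpf and 28% ± 0.29 and 31.3% ± 1.19 at 50 hpf. In the order of the groups above, eif4b took 88.9% ± 1.12, 90.5% ± 1.27, 87.5% ± 0.73 and 88.5% ± 1.76 of the eif4b and eif4ba counts. These shares carry no test of their own.

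**Figure D5:**
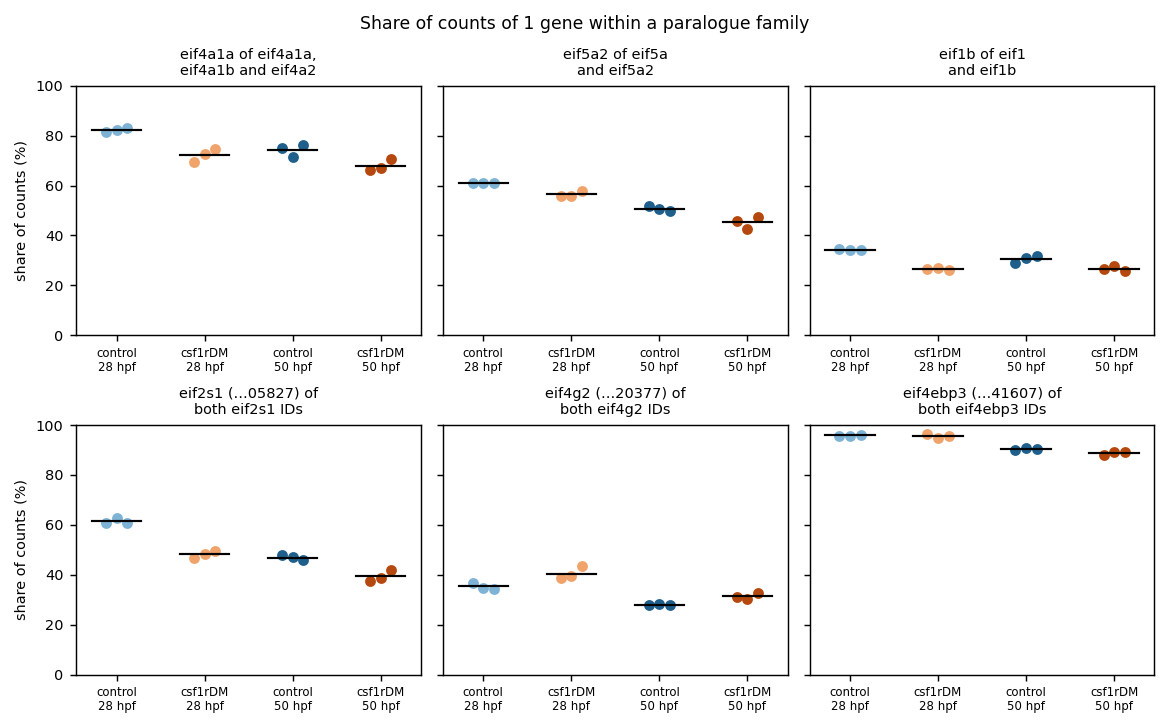
Share of the counts of a paralogue family taken by 1 of its genes, in percent, for 6 families, with 3 libraries per group as points and the group mean as a bar. The share of eif4a1a falls from a mean of 82.2% in control to 72.1% in csf1rDM at 28 hpf, and that of eif5a2 from 61.0% in control at 28 hpf to 45.2% in csf1rDM at 50 hpf.

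Genes that act beside the initiation factors were read from lists written from general knowledge. Cytosolic aminoacyl-tRNA synthetases, which charge the tRNAs that ribosomes use, together with accessory proteins of their complex were the list with the lowest genotype medians of the 5. Of 41 symbols 20 were found and tested, of which 11 were lower in csf1rDM at 28 hpf and 14 at 50 hpf by edgeR. These are 55% and 70% of the list, beside 10.9% and 11.4% of all genes called lower. At neither stage was a gene of the list called higher, with medians of -0.38 and -0.46 and 19 of 20 values below 0 at each stage. The accessory genes tested were aimp2 and eef1e1, and without them 10 and 13 of 18 synthetase genes were lower. With stage, 8 of the 20 fell in control and 9 in csf1rDM (40% and 45%), beside 11.4% and 14.4% of all genes. The tyrosyl enzyme gene yars1 had 204 to 208 CPM in control and 123 to 142 in csf1rDM at 28 hpf (log2 fold change -0.66 ± 0.10 SE, adjusted p = 0.000530), and 149.8 to 167 and 87.2 to 108 at 50 hpf (log2 fold change -0.69 ± 0.10 SE, adjusted p = 0.000333). The threonyl enzyme gene tars1 had 243 to 255 CPM in control and 163 to 177 in csf1rDM at 28 hpf (log2 fold change -0.56 ± 0.08 SE, adjusted p = 0.000566), and 150.1 to 185 and 112 to 115 at 50 hpf (log2 fold change -0.56 ± 0.08 SE, adjusted p = 0.000523). No library of 1 genotype reached the other in these comparisons.

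Targets of the integrated stress response, the programme that follows phosphorylation of eIF2 through the factor ATF4, gave 8 calls with stage in control and 7 in csf1rDM, beside 3 and 5 for genotype at 28 and 50 hpf. Of 17 tested genes, 7 rose and 1 fell with stage in control (median 0.69), and 5 rose and 2 fell in csf1rDM (median 0.06). The stage calls made up 47.1% and 41.2% of the list, beside 23.4% and 27.6% of all genes. Those that rose made up 41.2% and 29.4%, beside 12% and 13.3% of all genes. The gene chac1, which encodes an enzyme that degrades glutathione, had 84.2 to 99.6 CPM at 28 hpf and 175 to 256 at 50 hpf in control (log2 fold change 1.23 ± 0.12 SE, adjusted p = 1.36e-05), and 60.6 to 65.6 and 141 to 150.3 in csf1rDM (log2 fold change 1.21 ± 0.12 SE, adjusted p = 1.45e-05). The gene of the transcription factor CHOP, ddit3, rose in both (1.75 ± 0.33 in control and 1.48 ± 0.33 in csf1rDM, log2 fold change ± SE), and atf3, for another stress factor, fell in both (-1.36 ± 0.17 and -1.5 ± 0.17). Between genotypes 1 gene was higher and 2 lower at 28 hpf, and 0 higher and 5 lower at 50 hpf, 17.6% and 29.4% of the list beside 20.5% and 19.9% of all genes. The last include the one-carbon gene shmt2 and the serine gene psat1. At 50 hpf shmt2 had 43.1 to 47.3 CPM in control and 8.37 to 19.1 in csf1rDM (log2 fold change -1.65 ± 0.23 SE, adjusted p = 0.000370), and psat1 49.8 to 63 and 9.17 to 16.7 (log2 fold change -2.19 ± 0.26 SE, adjusted p = 8.30e-05). The genotypes also separated for shmt2 at 28 hpf (32.9 to 39.7 CPM in control and 12.5 to 17.1 in csf1rDM). For mthfd2, another one-carbon gene of the list, they overlapped at 50 hpf (126 to 174 and 142 to 186 CPM). In psat1 the interaction passed as well (log2 fold change -1.69 ± 0.35 SE, adjusted p = 0.0420).

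In the mTORC1 arm, which links growth factors and nutrients to the 4E-binding proteins, 2 of 17 tested genes were higher and 1 lower in csf1rDM at 28 hpf, and 3 higher and 2 lower at 50 hpf. These are 17.6% and 29.4% of the list, beside 20.5% and 19.9% of all genes, and the genes below were chosen after their values were seen. At each stage 8 of the 17 values lay below 0 and 9 above. Among the lower genes, rps6kb1b had 95.2 to 101 CPM in control and 67 to 77.9 in csf1rDM at 28 hpf. At 50 hpf sesn2 had 15.8 to 19.4 CPM in control and 9.78 to 13.1 in csf1rDM. The kinase gene mtor itself had 48.9 to 73.4 CPM in control and 76 to 112 in csf1rDM at 50 hpf (log2 fold change 0.73 ± 0.23 SE, adjusted p = 0.0395), and tsc2, a brake on the kinase, 15.3 to 18.8 and 28.2 to 31.2 (log2 fold change 0.77 ± 0.17 SE, adjusted p = 0.00608). The gene ddit4, for the inhibitor REDD1, was higher in csf1rDM at 28 hpf (log2 fold change 1.04 ± 0.26 SE, adjusted p = 0.0139) and rose with stage in control (log2 fold change 1.91 ± 0.26 SE, adjusted p = 0.000168) and in csf1rDM (log2 fold change 1.59 ± 0.25 SE, adjusted p = 0.000442). With stage, 2 genes of the list were called higher and 3 lower in control, and 3 and 5 in csf1rDM. These are 29.4% and 47.1% of the list, beside 23.4% and 27.6% of all genes. Of the lysosomal Ragulator genes, lamtor4 and lamtor5 fell with stage in both genotypes. For lamtor5 the log2 fold changes (± SE) were -0.84 ± 0.10 in control and -0.73 ± 0.11 in csf1rDM. The stages overlapped for lamtor1 in both genotypes and for lamtor3 in csf1rDM. They did not overlap for lamtor2, which was lower at 50 hpf in both.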

How the data were processed

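Green fluorescent macrophages were sorted into Trizol from pools of embryos; the cDNA, amplified with SMART-seq v4, was read from both ends. The deposited table holds raw counts per Ensembl gene that the authors made and did not normalise. The submitters' processing notes name CASAVA 1.8, cutadapt, STAR 2.5.4b, Cufflinks 2.2.1, HTSeq 0.11.0 and edgeR, with GRCz10. The strand setting and annotation version are not given in the sources used here, so overlapping genes and close paralogues may share reads. There are no molecular identifiers.

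All 12 libraries (8641139 to 20261650 counts) entered 1 edgeR 4.0.16 quasi-likelihood F test in R 4.3.3, with a mean per group, filterByExpr and TMM. Within each of 5 contrasts, the Benjamini-Hochberg method was applied to the p-values of 16429 tested genes. Symbols were found for 27000 IDs. The scripts were tested on simulated data with genotype changes set at 28 hpf. Of genes with a log2 change of 1.5, 100 of 100 were recovered, and of those with 0.5, 8 of 100, in a step of 15835 genes. In the data 20.5% of 16429 genes passed at 28 hpf, and the adjusted p depends on that share. The 8 of 100 is therefore not the recovery rate of the data. False calls made up 5.26% of the calls. A member that did not pass is not shown to be unchanged. Replicate pairs of a group differed by more than sampling noise (chi-square per degree of freedom 5.17 to 24.6), so no library was a copy of another of its group. All 12 libraries were kept. DESeq2 1.42.0, other scalings, filters, the replicate block and omission of each library were alternatives. Every member may be named; full statistics went to those past the study's thresholds and to the 5 largest rises and falls per contrast at a mean of at least 10 CPM, and other members named with values were chosen after these were seen. The members and lists were chosen with earlier results of these data known.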

Additional observations from a re-analysis of the deposited data

How the results depend on the processing

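No member called in a pairwise comparison reversed direction under any alternative, and of the calls 11 of 22 (genotype, 28 hpf), 6 of 13 (genotype, 50 hpf), 15 of 23 (stage, control) and 11 of 24 (stage, csf1rDM) passed under every alternative run. Leaving out 1 library gave 13 to 26 calls for genotype at 28 hpf (13 without control 28 hpf replicate 2 and 14 without csf1rDM 28 hpf replicate 2), 7 to 16 for genotype at 50 hpf (7 without control 50 hpf replicate 3), 16 to 21 for stage in control, 18 to 20 for stage in csf1rDM and 0 to 1 for the interaction. The members' median log2 fold change then ran from -0.25 to -0.17, -0.22 to -0.08, -0.26 to -0.15, -0.11 to -0.05 and 0.07 to 0.21. At an adjusted p under 0.01 without a fold limit 11, 7 and 11 members were called for genotype at 28 hpf, genotype at 50 hpf and stage in csf1rDM. Stage in control, where more members passed that limit, is not counted here. A fit of only the libraries compared left 14 calls for stage in csf1rDM. Under the study's thresholds the 1 member at 50 hpf became 0 with no filter, with only the libraries compared, with the replicate block, and in all 6 omissions (0 to 0), and the 1 member for stage in csf1rDM became 2 with DESeq2, with at least 10 counts in every library and without csf1rDM 50 hpf replicate 3 (1 to 2 over omissions). For the interaction, 1 member passed with DESeq2 size factors, upper quartile scaling, the strict filter, the replicate block or without control 50 hpf replicate 3, and 3 with the Wald test of DESeq2. The causes were not tested. With no filter the median of all genes moved to 0.15 for genotype at 50 hpf, 0.30 for stage in csf1rDM and 0.12 for the interaction. Restricting the members to the 16 symbols in lower case, an alternative chosen after seeing the data, left 5, 5, 5 and 3 calls with medians of -0.23, -0.12, -0.11 and -0.08. Over all genes 20.5%, 19.9%, 23.4% and 27.6% were called in these comparisons. For the alternative fits, shares of all genes called are not given beside the counts. A change in the members is therefore not told apart from a change in the whole fit.

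Deviations of same-numbered libraries from their group means correlated at -0.47 to 0.19 (median 0.03), above 0.1 in 3 of 18 pairs. Those of other numbers correlated at -0.31 to 0.33 (median -0.006), above 0.1 in 7 of 36. Deviations from a mean of 3 libraries sum to 0, so these values cannot settle whether the replicate numbers pair the samples. With the number as a block, calls went from 22 to 22, 13 to 12, 23 to 21, 24 to 21 and, for the interaction, 0 to 1. Over all genes the calls went from 3373 to 3026, 3263 to 3005, 3839 to 3661, 4537 to 4219 and, for the interaction, 151 to 84.

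Groups of 3 pools limit what passes, and members under 10 CPM, such as eif3h (ENSDARG00000036116) and eif4g3 (ENSDARG00000077215), are set by few counts.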

Other observations

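Calls among the factors that follow initiation were divided. Of 11 tested genes of elongation and termination, 2 were higher and 2 lower in csf1rDM at 28 hpf, and 2 higher and 1 lower at 50 hpf, with medians of 0.18 and -0.04. Over all genes 20.5% and 19.9% were called at these stages. The gene eef1a1l1, for the factor that delivers charged tRNAs, was higher at 28 hpf (log2 fold change 0.35 ± 0.07 SE, adjusted p = 0.00240) and 50 hpf (log2 fold change 0.2 ± 0.07 SE, adjusted p = 0.0440). Its genotypes overlapped at 50 hpf (3117 to 3581 CPM in control and 3475 to 4239 in csf1rDM). The ribosome recycling gene abce1 was lower in csf1rDM, with 387 to 395 CPM in control and 237 to 254 in csf1rDM at 28 hpf (log2 fold change -0.66 ± 0.10 SE, adjusted p = 0.000601) and 229 to 287 and 157 to 196 at 50 hpf (log2 fold change -0.57 ± 0.10 SE, adjusted p = 0.00152); it also fell with stage in control (-0.56 ± 0.10) and csf1rDM (-0.46 ± 0.10).

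Among 16 tested genes that help initiation under other symbols, 1 was higher and 2 lower in csf1rDM at 28 hpf, and 0 higher and 3 lower at 50 hpf, 18.8% of the list at each stage and so near the shares of all genes. The lower genes included denr, for a factor of reinitiation, with 109 to 125 CPM in control and 66.5 to 75.9 in csf1rDM at 28 hpf (log2 fold change -0.73 ± 0.11 SE, adjusted p = 0.000470) and a further call at 50 hpf (log2 fold change -0.49 ± 0.11 SE, adjusted p = 0.00555). Another was abcf1, whose product associates with eIF2 and ribosomes. At 28 hpf its range was 114 to 120.5 CPM in control and 66.5 to 88.2 CPM in csf1rDM (log2 fold change -0.63 ± 0.12 SE, adjusted p = 0.00233), and at 50 hpf it was lower as well (log2 fold change -0.38 ± 0.12 SE, adjusted p = 0.0356). The gene pdcd4a, for an inhibitor of eIF4A, was higher in csf1rDM at 28 hpf (log2 fold change 0.4 ± 0.06 SE, adjusted p = 0.000719).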
